A study of Homo sapiens with 17 samples.

Results

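L2 elements are the copies of LINE-2, an old family of non-LTR retrotransposons, and they are described here in RNA of the human embryonal carcinoma line N2102Ep after immunoprecipitation of the 2 proteins that L1 elements encode. The members were all loci of the deposited repeat table whose family name is exactly L2. This gave 347472 of 3594049 repeat loci (9.67%), in 10 subfamilies: L2a with 126817 loci, L2c with 104439, L2b with 71235, L2 with 42702, L2-3_Crp with 1393, L2-1_AMi with 733, UCON49 with 67, UCON86 with 47, L2-1_Crp with 32 and L2-3_AMi with 7. Together they cover 83.3 Mb, or 6.88% of the bases in the table. The 4 groups of libraries were 4 RNA immunoprecipitations (RIP) of ORF1p, 4 RIPs of ORF2p, 3 mock immunoprecipitations whose descriptions carry the tag mIgG, and 6 libraries of total RNA that was not immunoprecipitated. ORF2p, mock and total RNA libraries are labelled as clone 2/A6 of the line, while the ORF1p libraries carry no clone label, and whether their cells were of the same clone cannot be told from the labels. In every comparison of ORF1p with another group below, the immunoprecipitation and a possible difference of cells cannot be told apart. Total RNA replicates 1 and 2 belong to a series named b in the labels and replicates 3 to 6 to a series named bl. No genotype change or drug treatment is given for any group. RNA was taken off the affinity medium with TRIzol and treated with DNase, and libraries were made with a kit that removes ribosomal RNA. Whether replicates were grown as separate cultures is not said in the labels, so every p-value measures only the spread between these libraries.

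L2 once copied itself through an RNA intermediate with its own reverse transcriptase, and it lent this machinery to the short MIR elements. Both families stopped moving long before the primate radiation, so human L2 copies are short, diverged and unable to make protein. They are transcribed mostly as passengers inside the introns and untranslated parts of genes, and some have become regulatory sequence or microRNA precursors. The L1 proteins differ in role: ORF1p is an abundant RNA chaperone that coats L1 RNA, and ORF2p is the scarce endonuclease and reverse transcriptase. Both preferentially bind the L1 RNA that encoded them, and ORF2p can also act on other polyadenylated RNA, Alu above all.

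Some L2 copies hold microRNA hairpins. Of 1560 human hairpins in the RefSeq table (GRCh38.p14), 31 overlapped 30 L2 loci, and 2 of those loci had enough reads to be tested. Their mature microRNAs are shown because they name what these L2 copies became; capitals mark the seed, bases 2 to 8. Both hairpins lie wholly inside an L2a copy, MIR616 in the span of DDIT3 on chromosome 12 and MIR1825 in the span of POFUT1 on chromosome 20, and their 3 seeds differ.
hsa-miR-616-5p: aCUCAAAAcccuucagugacuu
hsa-miR-616-3p: aGUCAUUGgaggguuugagcag
hsa-miR-1825: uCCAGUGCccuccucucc
The library reads counted here are from whole L2 loci and not from the small RNAs. The L2a locus of MIR1825 (chr20:32237183-32237905), which runs against POFUT1, a fucosyltransferase that modifies Notch, had 9.82, 11.9, 10.8 and 14.6 CPM (reads per 1000000 repeat reads after scaling) in the ORF1p libraries. L2a chr20:32237183 had 1.70 to 5.03 CPM with ORF2p, 2.92 to 3.72 in mock and 2.57 to 6.57 in total RNA. All ORF1p libraries were above all others, and the rise over mock was 1.88 ± 0.43 on the log2 scale (SE, edgeR quasi-likelihood test, adjusted p = 0.000598). The L2a locus of MIR616 (chr12:57518960-57519475), in the span of the stress transcription factor DDIT3, averaged 6.62 ± 1.68 CPM (SD, n = 4) with ORF1p and 2.65 ± 1.26 (SD, n = 3) in mock. It rose by 1.32 ± 0.46 (adjusted p = 0.0145, edgeR), a call lost without mock replicate 2 or 3, at 1.09 and 1.18. With ORF2p neither locus differed from mock beyond its error (−0.20 ± 0.42 and −0.01 ± 0.45 log2).

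A second set of L2 copies lies at transcription starts. Of 35116 RefSeq promoter windows, which reach from 250 bases before to 50 bases after a gene's start, 447 L2 loci covered at least 100 bases, and 13 of these loci had enough reads. A pair of them with opposite behaviour is shown, with the L2 part in capitals, 5′ to 3′ on the gene's strand (GRCh38.p14).
CCDC86-AS1 promoter, chr11:60851032-60851331, minus strand: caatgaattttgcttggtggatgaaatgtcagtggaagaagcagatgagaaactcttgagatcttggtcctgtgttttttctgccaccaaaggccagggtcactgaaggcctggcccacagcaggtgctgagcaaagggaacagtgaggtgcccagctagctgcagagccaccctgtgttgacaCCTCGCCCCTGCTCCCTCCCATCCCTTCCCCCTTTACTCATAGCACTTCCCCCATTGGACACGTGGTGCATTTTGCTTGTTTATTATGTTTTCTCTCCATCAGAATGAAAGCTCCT
PCA3 promoter, chr9:76764186-76764485, plus strand: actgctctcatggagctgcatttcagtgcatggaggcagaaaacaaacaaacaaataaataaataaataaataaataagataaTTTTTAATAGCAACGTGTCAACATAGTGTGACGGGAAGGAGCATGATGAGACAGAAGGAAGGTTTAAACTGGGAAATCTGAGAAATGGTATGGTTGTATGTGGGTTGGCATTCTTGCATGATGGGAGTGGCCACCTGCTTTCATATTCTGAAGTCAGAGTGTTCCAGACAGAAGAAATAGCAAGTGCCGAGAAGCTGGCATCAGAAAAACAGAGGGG
At the first, L2a chr11:60850948 had 29.6, 20.4, 26.2 and 29.2 CPM in the ORF1p libraries and 1.35 to 2.37 in mock, a rise of 3.73 ± 0.38 (log2, SE, adjusted p = 3.57e-08, edgeR). At the second, L2a chr9:76764269 had 0.213, 0.248, 0 and 0.342 CPM with ORF1p and 5.50, 6.80 and 5.41 in mock, a fall of 4.73 on the log2 scale. PCA3 is a long non-coding RNA inside PRUNE2. With ORF2p the same L2a copy at PCA3 had 1.60 to 3.08 CPM and fell by 1.49 (adjusted p = 0.0108), whereas the copy at CCDC86-AS1 had 1.23 to 1.38 CPM against 1.35 to 2.37 in mock, a difference that did not pass (adjusted p = 0.223). Of the other named promoter loci, the L2b copy at LOC107985027, in the span of KANSL1, had 1.06, 0.860, 2.20 and 6.51 CPM in the ORF2p libraries and 7.17 to 9.52 in mock, with means of 12.9 with ORF1p and 11.9 in total RNA. L2b chr17:46162488 changed with ORF2p by −1.61 log2 (adjusted p = 0.0245, edgeR). It was −2.59 without ORF2p replicate 4, the high library. The call was lost without any other ORF2p library and without mock replicate 1 or 3, at −1.33 to −1.61. The L2b copy at NPIPB3, a member of a family of near-identical genes whose reads cannot be placed with certainty, averaged 22.7 with ORF1p, 27.6 with ORF2p and 20.4 CPM in mock.

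The table held 7693841 to 9125527 repeat reads per ORF1p library, 9795032 to 17056092 per ORF2p library, 12703395 to 16271143 per mock library and 8937441 to 19670774 per total RNA library. L2 took 551581 to 745690, 577336 to 1026770, 1040231 to 1310938 and 704097 to 1729498 of them. The table lists repeats and no genes, so the cell line could not be checked against marker genes; HERVH-int with LTR7, a repeat known to be active in pluripotent cells, took 4.27%, 6.43%, 20.1% and 9.97% of repeat reads in the 4 groups in the same order. The ORF1p library of replicate 3 stood apart from its group, with 43.2% of its repeat reads in L1 against a group mean of 35.0%. Both total RNA series differed in other families, Alu taking 18.4% of repeat reads in series b and 6.86% in series bl. Of the locus values above 0, 90.4% were whole numbers (within 1e-06) for L2 and 6.17% for L1HS, the young L1 subfamily. These are shares of loci and not of reads.

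L2 took a smaller share of the repeat reads in the ORF2p RIP than in any other group. The share was 5.70%, 5.89%, 6.17% and 6.02% in the ORF2p libraries and 8.06%, 8.27% and 8.19% in mock. It was 8.17%, 8.20%, 7.17% and 8.26% in the ORF1p libraries, and 8.79%, 8.79%, 7.52%, 8.03%, 7.78% and 7.88% in total RNA. Every ORF2p library was below every library of the other groups, and the ORF1p, mock and total RNA libraries overlapped. The ORF2p mean of 5.95 ± 0.202% (SD, n = 4) lay 2.18 percentage points below total RNA (exact permutation test, two-sided, p = 0.00952, adjusted p = 0.0444 over 42 tests of L2 quantities). Against mock the difference was −2.23 points, with p = 0.0571, the smallest an exact test of 4 against 3 libraries can give (adjusted p = 0.0857). Against ORF1p it was −2.0 points (exact permutation p = 0.0286, adjusted p = 0.075). ORF1p and mock differed by −0.222 points (exact permutation p = 0.8), and without ORF1p replicate 3 by 0.0385.

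In read shares, fewer L2 molecules and more reads of other repeats cannot be told apart. L1 took 48.5% of repeat reads with ORF2p, 35.0% with ORF1p, 26.8% in mock and 36.3% in total RNA, and the endogenous retrovirus family ERV1 took 9.73%, 7.80%, 24.3% and 14.4%. Of the reads outside L1 and ERV1, L2 took 14.2 ± 0.785% with ORF2p (SD, n = 4), 14 ± 0.626% with ORF1p (SD, n = 4), 16.7 ± 0.363% in mock (SD, n = 3) and 16.6 ± 1.02% in total RNA (SD, n = 6). On this basis both RIPs were lower and ORF2p was no longer below ORF1p, the difference turning to 0.289 points. MIR, the short family that used the L2 machinery, took 5.32% with ORF2p, 7.39% with ORF1p, 6.60% in mock and 7.22% in total RNA. L2 reads per MIR read were 1.08 ± 0.0611 with ORF1p, 1.12 ± 0.0125 with ORF2p (SD, n = 4 each), 1.24 ± 0.025 in mock (SD, n = 3) and 1.13 ± 0.070 in total RNA (SD, n = 6). Each RIP library was below each mock library on this ratio (exact permutation p = 0.0571 for either RIP, adjusted p = 0.0857).

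**Figure D1:**
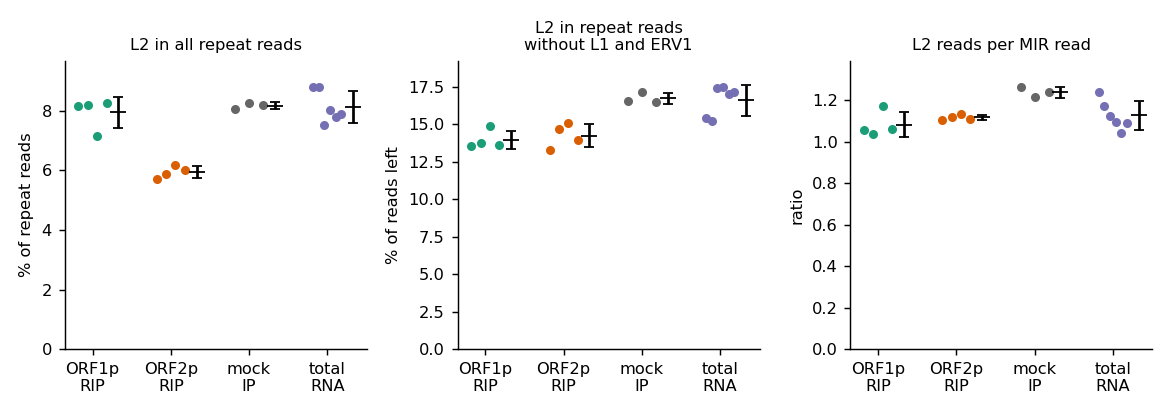
L2 per library in the 4 groups, as a percent of all repeat reads (left), as a percent of the repeat reads outside L1 and ERV1 (middle) and as reads per MIR read (right). Points are libraries and the black marks are the group mean ± SD; the ORF2p libraries (5.70% to 6.17%) lie below all others in the left panel and overlap the ORF1p libraries in the middle one.

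In the ORF2p RIP against mock, 5 of the 10 L2 subfamilies fell and 1 rose at an adjusted p under 0.05 (edgeR quasi-likelihood test over 1074 repeat subfamilies); of all subfamilies 15.5% fell and 16.7% rose. L2-3_Crp fell by 0.71 ± 0.08 (log2, SE, adjusted p = 1.23e-05), from 391, 391 and 372 CPM in mock to 240, 235, 238 and 229 CPM with ORF2p. The groups did not overlap. L2b fell by 0.35 ± 0.08 (adjusted p = 0.00453) and L2-1_AMi by 0.43 ± 0.09 (adjusted p = 0.00188). L2-1_Crp fell by 1.16 ± 0.26 (adjusted p = 0.0027), at the low level of 2.15 against 4.75 CPM. L2c fell by 0.23 ± 0.08 (adjusted p = 0.0395), a call that was lost when any 1 of the 7 libraries was left out, at values of −0.221 to −0.241. The median over the 10 subfamilies was −0.29, against −0.03 over all subfamilies tested. For comparison, 1 of 5 MIR subfamilies and 3 of 22 of the old CR1 family fell and 6 CR1 subfamilies rose, while 66 of 132 L1 subfamilies rose and 0 fell at the same threshold.

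The largest subfamily, L2a, showed no difference on this comparison: 31167 ± 772 CPM with ORF2p (SD, n = 4) and 31160 ± 527 in mock (SD, n = 3), a log2 change of 0.0003 ± 0.08. With library totals in place of scaling factors L2a was at −0.31. In that setting the median of all subfamilies was −0.34, against −0.03 with scaling factors. The level of L2a rested on few loci. With the 10 loci with the most reads in each L2 subfamily left out, L2a stood at −0.40 and L2 at −0.29. These loci were picked by their reads in the same libraries, and those of L2a are led by a pair on chromosome 8, described further on, that is high with ORF2p. Leaving them out lowers ORF2p by construction, so values without them are given as descriptions of how much few loci carry, with no test. UCON49 was the 1 subfamily that rose with ORF2p, by 1.26 ± 0.21 (adjusted p = 0.00031), from 18.3, 20.4 and 17.2 CPM in mock to 38.8, 49.2, 50.4 and 40.8. Of all UCON49 reads, 62.5% came from a single locus, chr9:15471242-15471356 in PSIP1, which encodes a chromatin-binding protein. That locus had 36.9 ± 5.06 CPM with ORF2p (SD, n = 4), 10.2 ± 1.76 in mock, 7.91 ± 1.81 with ORF1p and 10.9 ± 4.40 in total RNA. Without the 10 leading loci UCON49 stood at −0.83.

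In the ORF1p RIP the L2 subfamilies stayed near mock. Of the 10, 1 rose and 1 fell, where 26% and 25.6% of all subfamilies did (edgeR, adjusted p under 0.05). The median was −0.04. L2a differed from mock by 0.04 ± 0.08, L2b by −0.03 ± 0.08, L2 by −0.06 ± 0.08 and L2c by 0.18 ± 0.08 (log2, SE), and none of these passed (adjusted p from 0.0784 to 0.778). The sign for L2a turned to −0.05 when library totals replaced the scaling factors. MIR, by contrast, had 3 of its 5 subfamilies higher and 0 lower, with a median of 0.34.

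UCON86 rose with ORF1p by 1.21 ± 0.21 (adjusted p = 0.000153, edgeR), from 7.57, 8.75 and 5.94 CPM in mock to 17.7, 14.5, 21.7 and 14.8. All ORF1p libraries were above the mock libraries. A copy in ST7 (chr7:117223350-117223491) accounted for much of it, with 8.20 ± 1.48 CPM with ORF1p (SD, n = 4) against 0.356 in mock, 0.245 with ORF2p and 0.081 in total RNA. A copy in TXNL1, a thioredoxin-like protein gene, also rose, from 0.977 to 4.68 CPM. A copy in the calcium channel gene ITPR2 fell from 1.59 to 0.028 CPM. Without its 10 leading loci, UCON86 was at −0.51. L2-1_AMi fell with ORF1p by 0.26 ± 0.09 (adjusted p = 0.0229), a call lost without ORF1p replicate 2 or 4 or mock replicate 1, with values of −0.233, −0.217 and −0.236. Of its reads, 17.8% came from 1 locus outside gene spans, chr8:128596011-128596515, at 60.0 CPM in mock and 0.169 with ORF1p, and without the leading loci the change was 0.02.

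**Figure D2:**
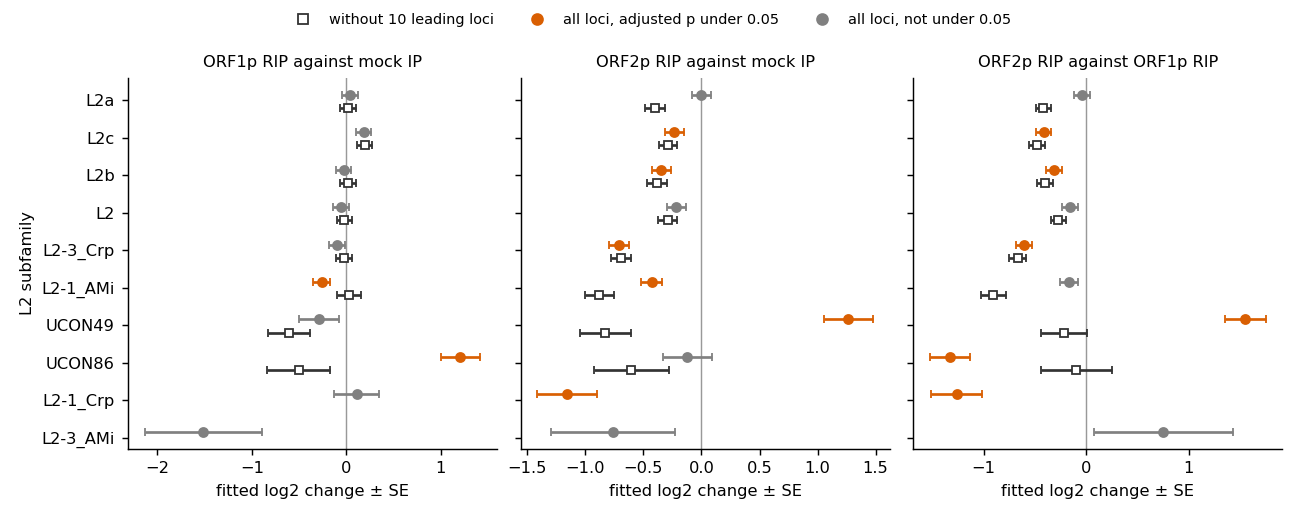
Fitted log2 change ± SE of the 10 L2 subfamilies in 3 comparisons, with all loci (circles) and without the 10 leading loci of each subfamily (squares; L2-1_Crp and L2-3_AMi were not tested then). Orange marks an adjusted p under 0.05 with all loci, and the squares carry no test. With ORF2p against mock, L2a moves from 0.00 to −0.40 and UCON49 from 1.26 to −0.83.

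Set directly against ORF1p, the ORF2p RIP had 5 L2 subfamilies lower and 1 higher, where 28.3% and 28.1% of all subfamilies were. L2c was lower by 0.42 ± 0.08, L2b by 0.32 ± 0.08 and L2-3_Crp by 0.61 ± 0.08 (log2, SE, adjusted p = 0.00024, 0.00232 and 6.74e-06, edgeR). UCON86 was lower by 1.33 and L2-1_Crp by 1.26, and UCON49 was higher by 1.55. L2a differed by −0.04 ± 0.08 and L2-1_AMi by −0.17 ± 0.08 (adjusted p = 0.101 for L2-1_AMi). No L2 call of this comparison was lost when 1 library was left out.

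Against total RNA, ORF1p had 6 L2 subfamilies higher and 1 lower (29.1% and 28.6% of all), and ORF2p 1 higher and 4 lower (18% and 20.6% of all). With ORF1p the rises were 1.18 for UCON86, 0.56 for L2-1_Crp, 0.23 for L2c, 0.21 for L2-1_AMi, 0.20 for L2-3_Crp and 0.19 for L2a; of these, L2-1_AMi, L2-3_Crp and L2a turned to −0.0037, −0.02 and −0.02 with library totals. The 7 calls became 3 against total RNA of series b alone, 3 without ORF1p replicate 3 or total RNA replicate 3, and 4 without ORF1p replicate 1 or total RNA replicate 4 or 5. With ORF2p the falls were 0.71 for L2-1_Crp, 0.41 for L2-3_Crp, 0.19 for L2c and 1.34 for L2-3_AMi, whose 7 loci together reached 0.650 CPM with ORF2p and 1.64 in total RNA. The 5 ORF2p calls became 2 without ORF2p replicate 4, and 3 without ORF2p replicate 2 or 3 or total RNA replicate 4 or 6. Mock itself had L2-1_AMi and L2-3_Crp higher than total RNA, by 0.47 ± 0.08 and 0.30 ± 0.08 (adjusted p = 0.00391 and 0.0498), where 2.23% of all subfamilies were higher and 0.652% lower. The L2-3_Crp call was lost without any 1 mock library and without any 1 of total RNA replicates 3 to 6.

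Where the L2 reads came from in the genome differed between the RIPs. Of all L2 loci 70.1% lie inside a RefSeq gene span. Loci inside spans gave 91.7%, 91.6%, 90.9% and 91.6% of L2 reads in the ORF1p libraries, 79.7% to 80.6% with ORF2p, 80.9% to 81.9% in mock and 78.0% to 82.8% in total RNA. Every ORF1p library was above all others. The mean of 91.4 ± 0.372% exceeded total RNA by 11.7 points (exact permutation test, two-sided, p = 0.00952, adjusted p = 0.0444), and mock by 10.1 points (p = 0.0571 in the exact test, adjusted p = 0.0857). Of MIR reads, loci inside spans gave 92.6%, 80.0%, 82.7% and 80.0% with ORF1p, with ORF2p, in mock and in total RNA, and of the reads of all other repeats 82.3%, 67.7%, 68.5% and 70.3%. Without the 2 adjacent L2a loci on chromosome 8 that led the ORF2p libraries, described further on, the ORF2p mean was 78.0% (an alternative added after the data were seen).

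L2 copies in genes lie against the gene more often than with it. Of the loci inside 1 gene span of known strand, 45.1% had the gene's orientation, and they held 44.1% of the bases; for MIR it was 50.8% of loci. Copies with the gene's orientation gave 51.4 ± 0.811% of such L2 reads in mock (SD, n = 3), 48.5 ± 1.67% with ORF1p and 46.4 ± 1.06% with ORF2p (SD, n = 4 each), and 39.6 ± 2.04% in total RNA (SD, n = 6). Total RNA was below every immunoprecipitated library: 42.2% in series b and 38.4% in series bl. ORF1p exceeded total RNA by 8.88 points and ORF2p by 6.82 (exact permutation p = 0.00952 and adjusted p = 0.0444 for both), and mock by 11.8 (exact permutation p = 0.0238, adjusted p = 0.075). For MIR reads the share was 49.7% to 50.8% in the 4 groups. For all other repeats it was 46.5% with ORF1p, 52.1% with ORF2p, 43.8% in mock and 47.9% in total RNA, with 39.3% in series b and 52.2% in series bl. For L2 reads both RIPs were below mock, by 2.90 and 4.97 points (exact permutation p = 0.0571, adjusted p = 0.0857 for each). No source used here says whether the authors' counting used read strand, and orientation here is that of the copy and not of the read.

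Reads also differed by the divergence and length of the copies. The least diverged quartile of L2 loci gave 22.7 ± 0.213% of L2 reads with ORF1p (SD, n = 4), 19.2 ± 0.179% in mock (SD, n = 3), 18.9 ± 1.06% in total RNA (SD, n = 6) and 17.3 ± 0.336% with ORF2p (SD, n = 4). ORF1p was above all others (adjusted p = 0.0444 against total RNA and 0.0857 against mock, exact permutation test). The low ORF2p value rested on the chromosome 8 pair, which falls in the most diverged quartile: without it ORF2p had 19.2 ± 0.239%, a difference of 0.0314 points from mock. The pair was picked for its reads with ORF2p, so values without it are descriptions with no test. The most diverged quartile gave 36.2% of L2 reads with ORF2p and 28.5% in mock, and 29.1% and 28.4% without the pair. L2 loci of at least 1000 bases, 1.51% of all L2 loci, gave 5.54% of L2 reads with ORF2p, 7.04% in mock, 6.59% with ORF1p and 6.62% in total RNA. Here every ORF2p library stayed below every mock and total RNA library without the pair, at a mean of 6.15%. Against ORF1p the difference without the pair was −0.44 points and the libraries overlapped.

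**Figure D3:**
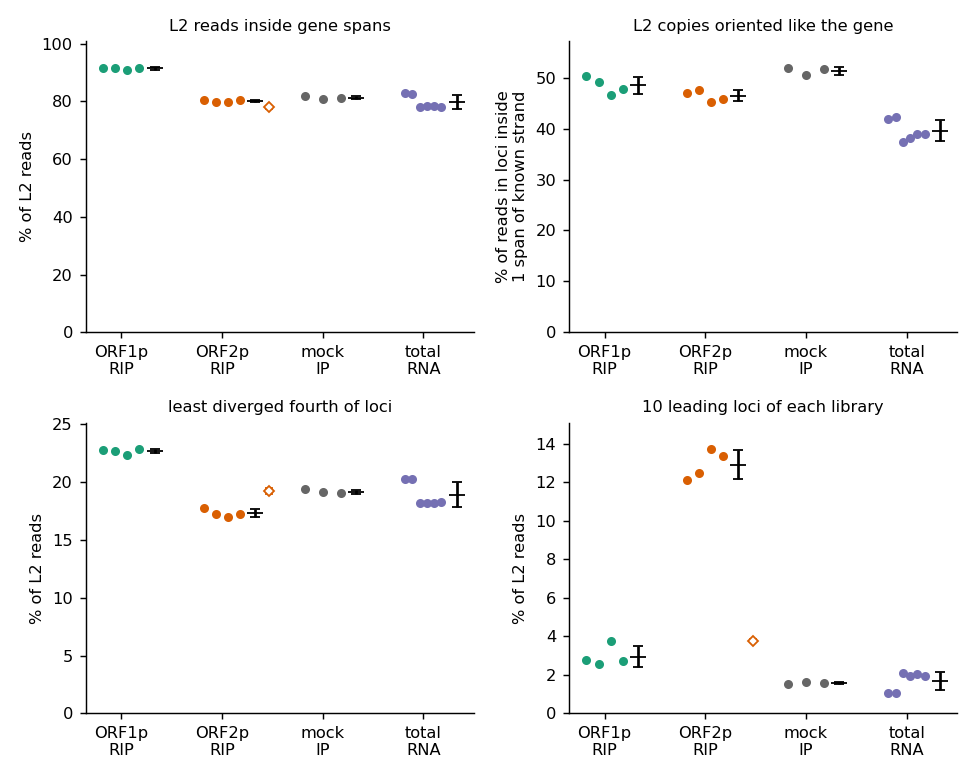
Percent of L2 reads per library in loci inside gene spans, in copies with the gene's orientation, in the least diverged quartile of L2 loci, and in the 10 leading loci of each library. Points are libraries, black marks the mean ± SD, and open diamonds the ORF2p mean ± SD without the chromosome 8 pair (78.0%, 19.2% and 3.79%).

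Single loci were tested where they had enough reads, 11580 L2 loci of 126550 repeat loci. These are 3.33% of all L2 loci and hold 49.9% of L2 reads, so the counts that follow do not describe L2 copies in general. A locus counts as higher or lower at an adjusted p under 0.05 with at least a 2-fold change (edgeR). With ORF2p against mock, 947 tested L2 loci were higher and 2635 lower, 8.18% and 22.8%; among all tested repeat loci it was 18.6% and 13.2%. The median change of the L2 loci was −0.59 log2, against −0.10 for all. MIR had 15% higher and 11.3% lower, and L1 26.3% and 8.16%. The 4 large subfamilies were alike: 24.4% of L2a loci were lower, 20.7% of L2b, 20.5% of L2c and 24.3% of L2, and 7.10% to 9.55% were higher. With library totals in place of scaling factors 666 L2 loci were higher and 3875 lower. The higher loci were shorter, with a median of 233 bases against 482 for the lower ones and 358 for all those tested.

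With ORF1p against mock, 3409 tested L2 loci were higher and 3980 lower, 29.4% and 34.4%, against 32.9% and 33.3% of all tested loci. The split differed by location, though only 1311 of the 3980 lower loci lay outside gene spans. Of 1940 tested L2 loci outside gene spans, 13.6% were higher and 67.6% lower, where 23.3% and 55.9% of all repeats outside spans were. Of these 1940, 496 had no read in any ORF1p library; with such loci held at a floor of 3 counts per library the median change was −2.53 log2. Inside spans the median with the same floor was 0.25. The loci there fall in classes: the gene's orientation, the opposite one, a span of unknown strand, or several spans. By class, 28.2% to 38.2% were higher and 23.5% to 37.4% lower. With ORF2p, L2 loci outside spans were split almost evenly against mock, 11.9% higher and 13.5% lower (all repeats outside spans 26.7% and 10.7%).

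Within genes the L2 loci called higher or lower in the ORF1p RIP mostly lay in genes whose other repeats changed in the same direction. Most of those called in the ORF2p RIP lay in genes whose other repeats were not called, and most of all tested gene spans were not called there either. Where such a span was called with ORF2p, its direction was more often that of the L2 locus than the opposite. For 8682 tested L2 loci in 3364 gene spans, the reads of all non-L2 repeats in the span were summed and fitted in the same way, over 14682 spans of which 32.7% were higher and 22.1% lower with ORF1p against mock. Of 2776 L2 loci that were higher with ORF1p, 2213 lay in spans whose other repeats were higher and 20 in spans that were lower. Of 2421 lower loci, 1812 lay in lower spans and 20 in higher ones. Across these loci the changes had r = 0.89 and rho = 0.88. With ORF2p, 13% of spans were higher and 6.12% lower. Of 635 higher L2 loci 183 lay in higher spans, 6 in lower ones and 446 in spans that were not called. Of 2150 lower loci 242 lay in lower spans, 83 in higher ones and 1825 in spans that were not called. For ORF2p r was 0.39 and rho 0.36. Loci of 1 gene share its transcript and the points share the libraries and depth, so these correlations are descriptions over loci that are not independent.

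**Figure D4:**
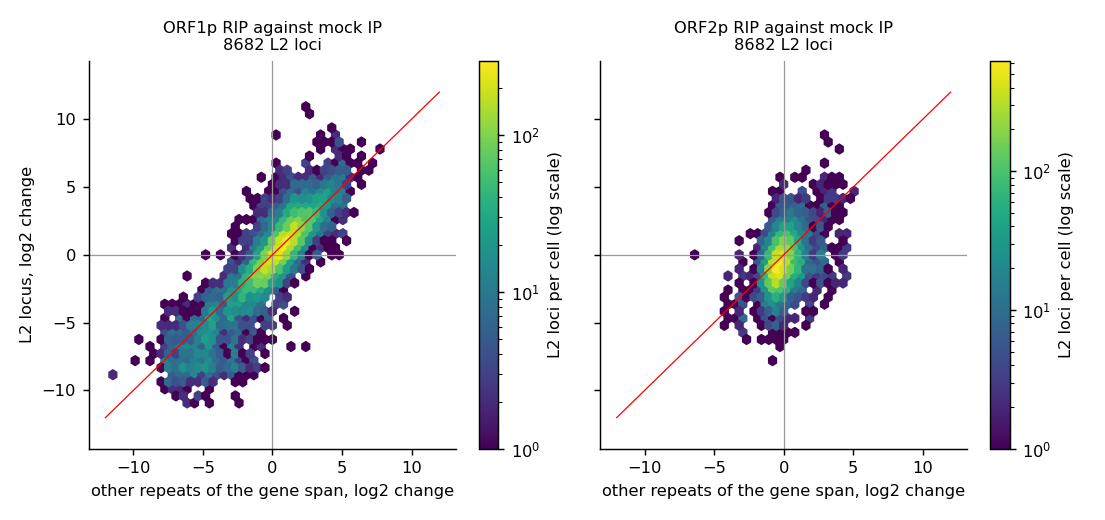
Log2 change of 8682 L2 loci (vertical) against that of the other repeats in the same gene span (horizontal), for ORF1p and for ORF2p against mock; colour gives the number of loci per cell on a log scale and the red line marks equal change. The points follow the line with ORF1p (r = 0.89) and spread about 0 with ORF2p (r = 0.39).

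A few loci held a large part of the L2 reads with ORF2p. The 10 leading loci of each library held 12.9 ± 0.755% of L2 reads with ORF2p (SD, n = 4), 2.95 ± 0.534% with ORF1p (SD, n = 4), 1.58 ± 0.064% in mock (SD, n = 3) and 1.69 ± 0.491% in total RNA (SD, n = 6). Most of the ORF2p value came from a pair of adjacent L2a fragments on the minus strand of chromosome 8, chr8:114296044-114296344 and chr8:114295932-114296031, inside the span of the uncharacterised gene LOC105375710. The longer fragment had 4533, 5010, 5537 and 5193 CPM in the ORF2p libraries. In mock it had 98.6, 97.6 and 106 CPM, in the ORF1p libraries 11.5, 11.5, 39.9 and 21.3, and in total RNA 62.6 and 67.9 in series b and 232 to 287 in series bl. The ORF2p libraries were far above every other library, a rise over mock of 5.65 ± 0.61 log2 (SE, adjusted p = 8.3e-07, edgeR). The shorter fragment had 1981 ± 303 CPM with ORF2p and 38.1 ± 4.02 in mock. Together they gave 9.94 ± 0.814% of all L2 reads with ORF2p, 0.177% in mock, 0.0366% with ORF1p and 0.412% in total RNA. Repeats of other families beside them were high too: an MLT1E3 copy starting 991 bases further on had 1404 ± 209 CPM with ORF2p and 67.9 in mock, and an L1ME1 copy starting at 1270 bases had 592 and 22.9. On the other side a MER33 copy had 95.6 and 39.3 CPM. Without the pair the 10 leading loci held 3.79% of L2 reads with ORF2p, and the L2 share of repeat reads there was 5.39%. Leaving out loci that are high with ORF2p lowers both values by construction.

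The next L2 loci in the ORF2p libraries behaved in different ways. An L2a copy of 1793 bases in MACC1-OT1 (chr7:19966604-19968396) averaged 681 ± 66.0 CPM with ORF2p (SD, n = 4), 65.7 ± 6.50 in mock, 133 ± 86.9 with ORF1p and 129 ± 67.2 in total RNA. It rose over mock by 3.37 ± 0.54 (adjusted p = 6.7e-05, edgeR). No other repeat starting within 2000 bases of it passed 4.81 CPM in the ORF2p group mean. An L2c copy lying against RAB3B (chr1:51914391-51914576), a GTPase gene of regulated secretion, was high in both RIPs: 349 ± 28.6 CPM with ORF2p, 160 ± 70.8 with ORF1p, and 15.1 ± 2.10 in mock. The rises were 4.53 ± 0.43 and 3.41 ± 0.41 log2, and the other repeats of RAB3B rose too, by 3.57 and 2.55. An L2 copy in HELLS (chr10:94603199-94603818), which encodes a chromatin remodeller needed for DNA methylation, had 236 ± 32.8 CPM with ORF2p, 101 ± 12.6 in mock and 58.0 ± 7.01 with ORF1p. It rose with ORF2p by 1.23 (adjusted p = 0.00672) and fell with ORF1p by 0.79 (adjusted p = 0.0334). The fall with ORF1p lost its call without ORF1p replicate 1, 2 or 4 and without mock replicate 2 or 3, at values from −0.69 to −0.81.

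The L2 loci that led the ORF1p libraries lie in other genes. An L2a fragment of 91 bases in TUBB (chr6:30724490-30724580), a beta-tubulin gene, had 741, 631, 819 and 839 CPM with ORF1p, 35.3, 28.1 and 32.6 in mock, and 22.9 to 31.4 with ORF2p. It rose by 4.56 ± 0.41 over mock (log2, SE, adjusted p = 6.34e-09, edgeR) and did not differ with ORF2p (−0.15 ± 0.34). An L2a copy in PAICS (chr4:56460184-56460430), an enzyme of purine synthesis, had 456 ± 66.2 CPM with ORF1p (SD, n = 4) and 40.1 ± 1.82 in mock, a rise of 3.51 ± 0.33 (adjusted p = 1.23e-08). The AluJr copy next to it had 92.9 and 7.19 CPM and a Charlie4z DNA transposon copy 53.9 and 3.52. Next in the ORF1p libraries (chosen after their values were seen) were L2 copies in the spans of TPP1, a lysosomal peptidase gene, of YWHAZ, which encodes a 14-3-3 adaptor, and of CANX, which encodes the chaperone calnexin, with 0.243 ± 0.177%, 0.218 ± 0.0902% and 0.208 ± 0.0221% (SD, n = 4) of the L2 reads with ORF1p against 0.0292%, 0.0091% and 0.012% in mock. The reverse held for an L2a copy in SLCO1C1 (chr12:20739169-20739934), a thyroid hormone transporter gene. It led the mock libraries at 350, 336 and 344 CPM, had 130 to 153 with ORF2p and 100 to 134 in total RNA, and 0.161 to 1.17 CPM with ORF1p. Its change with ORF1p was −9.22 ± 0.45 (−9.93 without ORF1p replicate 1), and the other repeats of SLCO1C1 fell by 7.36.

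**Figure D5:**
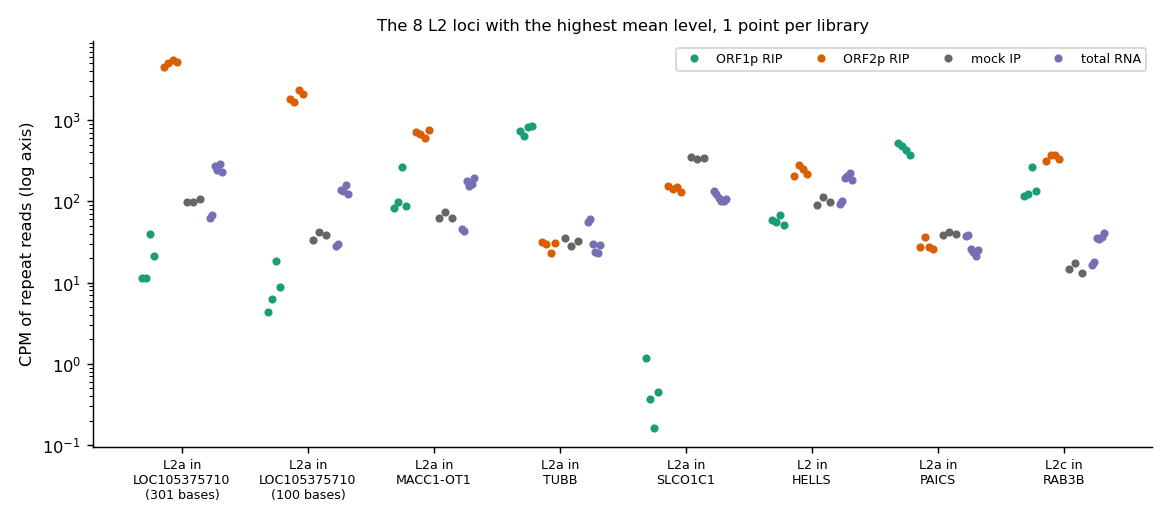
Level of the 8 L2 loci with the highest mean over the 4 groups, in CPM of repeat reads on a log axis, with 1 point per library. The LOC105375710 pair stands at 1981 and 5068 CPM on average with ORF2p, the TUBB and PAICS copies are highest with ORF1p, and the SLCO1C1 copy is near 0.5 CPM with ORF1p.

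The loci named next had the largest fitted changes of those that passed an adjusted p of 0.05, had a group mean of at least 4 CPM and showed no overlap of libraries. The 4 largest rises with ORF1p over mock were L2c copies. One in FRAS1 (chr4:78542651-78542765), an extracellular matrix gene, had 18, 21.7, 17.7 and 19.2 CPM with ORF1p and 0 in every mock library, which is at least 97.3-fold higher when mock is held at 3 counts per library. L2c chr4:78542651 had at most 0.369 CPM in any ORF2p library. An L2c copy in TLR8-AS1 (chrX:12906062-12906179), one outside gene spans (chr6:71377940-71378171) and one in the diacylglycerol kinase gene DGKH (chr13:42239939-42240163) were also at 0 in mock and at least 54.9-fold, 27-fold and 26.4-fold higher. The other repeats of FRAS1, TLR8-AS1 and DGKH rose as well, by 2.56, 2.54 and 4.34 log2. The largest falls were at 0 in all ORF1p libraries. An L2b copy outside gene spans (chr8:128610852-128611225) had 31.4, 37.3 and 29.8 CPM in mock, and L2b chr8:128610852 was at least 86.5-fold lower with ORF1p. L2a in GUCY2C-AS1 (chr12:14704669-14704804), L2 in KIAA0825 (chr5:94337646-94338165) and L2b in the dystrophin gene DMD (chrX:31390182-31390960) were at least 56.2-fold, 52.2-fold and 47.4-fold lower. The other repeats of these 3 spans fell by 6.22, 5.34 and 2.64 log2.

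With ORF2p over mock, the largest rise was an L2 copy in LOC105369673 (chr12:15310764-15311005), at 4.15, 4.18, 6.91 and 5.07 CPM against 0 in every mock library, at least 25.8-fold higher; L2 chr12:15310764 was at 0 in the ORF1p libraries too. An L2 copy in the zinc finger gene ZNF570 (chr19:37486073-37486223) averaged 6.22 ± 1.40 CPM with ORF2p (SD, n = 4) and 0.020 in mock, a change of 7.66 that became 9.36 without mock replicate 2. An L2a copy lying against CCDC186 (chr10:114122123-114122249) averaged 5.28 ± 2.63 and 0.041. An L2c copy outside gene spans (chr1:144069824-144069910) averaged 37.3 ± 10.7 and 0.241, a change of 7.31 that became 6.70 without mock replicate 1 and 9.06 without mock replicate 3. Copies of the same length, 87 bases, in the spans of SRGAP2C (chr1:121389320-121389406) and SRGAP2B (chr1:144890607-144890693) averaged 49.1 ± 15.1 and 39.1 ± 8.40 CPM with ORF2p against 0.712 and 0.464 in mock. SRGAP2 and its duplicates are nearly identical, so the place of these reads is uncertain. The other repeats of LOC105369673, ZNF570 and CCDC186 rose by 3.04, 3.88 and 2.75 log2. The largest falls were smaller, with log2 changes of −4.50 ± 0.56 for L2b in the nuclear pore gene NUP205 (chr7:135561469-135561799), −4.01 ± 0.57 for L2a in the lipid droplet gene LDAH (chr2:20755328-20755554), −3.99 ± 1.04 for L2a in the cell adhesion gene OPCML (chr11:133186632-133186917) and −3.77 ± 0.80 for L2c outside spans (chr12:11930478-11930751). The OPCML value was −5.55 without ORF2p replicate 1 and −3.35 without mock replicate 3, and the NUP205 value −5.18 without ORF2p replicate 4. The NUP205 copy had 0.173 CPM with ORF2p and 4.39 in mock while the other repeats of NUP205 rose by 0.66 (adjusted p = 0.00435).

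Between the RIPs, 3572 tested L2 loci were higher with ORF2p than with ORF1p and 4470 lower, 30.8% and 38.6%, where 36.9% and 31.1% of all loci were. Among the largest differences were an L2a copy of 1052 bases in LOC105369673 (chr12:15315647-15316698), at 22.8 ± 2.60 CPM with ORF2p and 0 in all ORF1p libraries (at least 60.0-fold higher), and L2b in PDE3A (chr12:20597748-20597869), a phosphodiesterase gene, at 17.8 ± 2.81 CPM and 0 (at least 46.9-fold). In the other direction an L2c copy in LOC124900404 (chr1:98173094-98174137) had 13.5 ± 3.44 CPM with ORF1p and 0 with ORF2p (at least 44.8-fold lower), and L2a in PRAG1 (chr8:8327006-8327134) had 12.4 ± 3.33 and 0 (at least 41.1-fold lower).

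Against total RNA, 3950 tested L2 loci were higher and 4035 lower with ORF1p (34.1% and 34.8%; all loci 35.1% and 35.2%), and 1389 and 3195 with ORF2p (12% and 27.6%; all loci 22.9% and 20.3%). With library totals the ORF2p counts became 826 and 4869. With ORF1p the largest rises over total RNA took in L2a copies in RPS24, a ribosomal protein gene (chr10:78054786-78055274), and in the span of LINC01776 (chr1:98223463-98223887), with 6.95 ± 1.51 and 7.55 ± 4.55 CPM (SD, n = 4) against 0 in all 6 total RNA libraries, at least 38.4-fold and 41.7-fold higher. L2a chrX:73822434 stood at 60.5 ± 12.7 CPM with ORF1p (SD, n = 4) and 0.049 ± 0.045 in total RNA (SD, n = 6). It averaged 0.751 CPM in mock and 0.086 with ORF2p. The largest falls took in L2 copies in LINC00458 (chr13:54126399-54126744) and LINC01194 (chr5:12703204-12703869), at 0 in all ORF1p libraries and 17.1 ± 5.30 and 17.1 ± 8.46 CPM in total RNA (SD, n = 6), and the other repeats of these non-coding genes fell by 3.73 and 6.16 log2. With ORF2p the SRGAP2C and SRGAP2B copies named above led the rises over total RNA, together with an L2 copy outside gene spans (chrX:155123650-155123864) at 16.7 ± 2.43 CPM (SD, n = 4) against 0.204 ± 0.125 (SD, n = 6). Its rise was 6.34 ± 0.50 log2 (SE, adjusted p = 2.29e-09, edgeR). The largest falls with ORF2p were L2a copies lying against NAALADL2 (chr3:174442605-174444334), at −4.50 ± 0.69 log2, and against SPRED1, an inhibitor of Ras signalling (chr15:38305387-38305691), at −4.35 ± 0.59. The NAALADL2 copy had 0.106, 0.123, 0 and 0.686 CPM in the ORF2p libraries, and its value was −6.22 without ORF2p replicate 4. The other repeats of NAALADL2 rose by 0.70 and those of SPRED1 fell by 1.21. Split by the orientation of the copy, of 3115 tested L2 loci with the gene's orientation, 45.9% were higher and 18.9% lower with ORF1p than in total RNA, and of 3720 with the opposite orientation 31.9% and 29.9%. For all repeats it was 39.7% and 24.2% with the gene's orientation and 40.5% and 25.2% with the opposite one. With ORF2p the opposite loci were 10.3% higher and 39.7% lower. Mock against total RNA had 765 L2 loci higher and 167 lower (6.61% and 1.44%; all loci 3.95% and 1.14%). Of the loci with the gene's orientation 413 were higher and 14 lower in mock, and of the opposite ones 1.42% and 2.18%. For all repeats the same and opposite orientations gave 3.95% and 3.30% higher.

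The mock counts were the least stable. With library totals they were 489 higher and 316 lower, against series b alone 54 loci were called in all and against series bl 3078. Leaving out total RNA replicate 1 or 2 gave 2159 or 1923 calls, leaving out any of total RNA replicates 3 to 6 gave 337 to 400, and leaving out mock replicate 1, 2 or 3 gave 77, 255 or 219. The largest rise in mock over total RNA was L2b in SHC3 (chr9:89060498-89060784), an adaptor gene, at 7.18 ± 1.93 CPM (SD, n = 3) against 0.318 ± 0.349 (SD, n = 6), or 4.41 ± 0.58 log2 (adjusted p = 0.00162, edgeR), and 5.10 without total RNA replicate 2. An L2c copy in the splicing factor gene SRRM2 (chr16:2769421-2770193) had 78.3, 25.6 and 60.3 CPM in mock. In total RNA L2c chr16:2769421 had 13.1 and 9.82 CPM in series b and 0.495 to 0.717 in series bl, and its call was lost against series b alone and without mock replicate 1 or 3, at 2.25, 3.33 and 3.60 log2. The falls were led by an L2 copy in LINC02267 (chr4:96522427-96522931) at −2.54 log2 (adjusted p = 0.0299). That call was lost without any 1 mock library and without any 1 of total RNA replicates 3 to 6, at values from −2.24 to −2.94.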

How the data were processed

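RNA from N2102Ep cells was sequenced after RIP of ORF1p or ORF2p, after a mock immunoprecipitation, or as total RNA. The authors deposited 1 table of expected counts per repeat locus, with 60 columns of values, of which 17 were matched to samples by name and 43 were not used. Per the submitters' processing notes the reads were mapped with STAR to hg38 (version not stated). The counting program, its handling of strand and the unit of divergence are not given in the sources used here. Starts were moved by 1 base to count from 1. Values were summed per subfamily, and the sums were then rounded to whole numbers, as were the values of loci and gene spans. TMM factors came from the subfamily table and also scaled the loci and gene spans, so CPM is per 1000000 repeat reads after scaling, and reads outside repeats are not in any total. The edgeR 4.0.16 quasi-likelihood test (R 4.3.3, Benjamini-Hochberg adjustment) was fitted over all 17 libraries and over all repeat subfamilies (minimum count 10) or loci (minimum count 30), with a call at an adjusted p under 0.05 and, for loci, at least a 2-fold change. On simulated data for ORF1p against mock it recovered 99% of 200 changed subfamilies and 52.6% of 200 changed loci. The simulation gave every feature the same fixed spread between libraries, and only those 200 features changed, by 2-fold. In the real data spreads vary and many more features were called, so these values do not give the power of the test there. DESeq2 1.42.0 was an alternative for subfamilies. Per-library quantities were compared by exact two-sided permutation tests (scipy 1.17.1), adjusted over 42 tests. The RefSeq GRCh38.p14 tables gave 59679 gene spans, 27305 of them with a strand, matched with bedtools 2.31.1. Hairpins and promoters came from the same tables.

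The loci named were all L2 subfamilies, the 4 L2 loci with the largest rise and the 4 with the largest fall per comparison (adjusted p under 0.05, at least 4 CPM in a group, no overlap of libraries), the 8 with the highest mean over the groups, those at hairpins, and the 4 highest of those covering at least 100 bases of a promoter. Not all of them are printed. The leading copies of UCON49, UCON86 and L2-1_AMi, and the copies in TPP1, YWHAZ and CANX, were chosen after their values were seen. The members and lists were chosen with earlier results of these data known. Alternatives were other scaling, filters, tests and samples, and 1 more, without the chromosome 8 pair, was added after the data were seen. Counts carry no molecular identifiers, so PCR copies are in them, and floors of 3 counts cover counting error only.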

Additional observations from a re-analysis of the deposited data

Results flagged for a closer look

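A library was marked where its gap to the nearest other library of its group was large against the range of the group (Dixon's test, groups of 4 to 10 libraries). This marked 10 of 75 groups tested, and chance marks about 1 in 20. ORF1p replicate 3 accounted for 9 of the 10. Its L2 share of repeat reads was 7.169%, with the other ORF1p libraries at 8.171% to 8.255%. Its ratio of L2 to MIR reads was 1.172, against 1.039 to 1.06, and 90.87% of its L2 reads lay in gene spans, against 91.58% to 91.66%. After scaling it was the highest of the group for L2 (13670 CPM, next 11640), L2-3_Crp (418.5 CPM, next 346.9), L2a (34960 CPM, next 31310) and L2c (26660 CPM, next 23770). The L2a copy in MACC1-OT1 (L2a chr7:19966604) had 262.4 CPM there and 98.72 in the next library. The L2c copy at RAB3B (L2c chr1:51914391) had 265.5 CPM there and 135.3 in the next, and both loci's ORF1p means given above include this library. L1 took 43.2% of its repeat reads and its scaling factor was 0.807, and their part in these values was not tested. The remaining case was the TUBB copy (L2a chr6:30724490) in ORF2p replicate 3, at 22.93 CPM against 30.24 to 31.39 in the other ORF2p libraries.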

How the results depend on the processing

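The values below are log2 changes of subfamilies, counts of calls, or differences in the L2 share in percentage points, and the cause of each change was not tested unless the setting itself gives it. With library totals instead of scaling factors the median of all subfamilies was −0.07 for ORF1p and −0.34 for ORF2p against mock, and −0.25 between the RIPs. It was −0.20, −0.47 and −0.13 for ORF1p, ORF2p and mock against total RNA. With scaling factors these medians were 0.02, −0.03, −0.04, 0.004, −0.05 and −0.02 in the same order. L2a then turned to −0.0513 and −0.3062 against mock with ORF1p and ORF2p. Against total RNA with ORF1p, L2 turned to −0.1345, L2-1_AMi to −0.0037, L2-3_Crp to −0.0222, L2a to −0.0225 and L2b to −0.0623, with ORF2p L2-1_AMi turned to −0.3801 and L2a to −0.2773, and in mock L2c to −0.0648. The counts of L2 subfamilies called against total RNA became 3 (ORF1p), 10 (ORF2p) and 1 (mock), from 7, 5 and 2.

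Without the 10 leading loci of each subfamily, which were picked by their reads in these libraries, L2-1_AMi turned to 0.0246, L2b to 0.0212 and UCON86 to −0.5052 with ORF1p against mock, L2a to −0.3996 and UCON49 to −0.8264 with ORF2p against mock, and UCON49 to −0.2158 between the RIPs. Against total RNA, UCON86 turned to −0.1950 with ORF1p, L2-1_AMi to −0.5048, L2a to −0.2546 and UCON49 to −0.7219 with ORF2p, and UCON49 to 0.1046 and UCON86 to 0.3102 in mock. These values carry no test, so calls are not counted for this setting.

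With only the 2 groups compared in the fit, L2a turned to −0.0038 with ORF1p and −0.0002 with ORF2p against mock, and the subfamilies called against total RNA became 2, 3 and 1 for ORF1p, ORF2p and mock. DESeq2 called 4 L2 subfamilies for ORF1p against mock and 5 for mock against total RNA. With no filter the mock count was 1.

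Against total RNA of series b alone, the subfamilies called were 3 with ORF1p and 0 in mock, L2b and UCON49 turned to −0.0377 and 0.0265 with ORF1p, L2-1_AMi to −0.1351 with ORF2p and UCON49 to 0.3609 in mock. The loci called were 2830 with ORF2p and 54 in mock. Against series bl alone, mock had 7 subfamilies and 3078 loci called and UCON86 turned to 0.1251. The differences in L2 share were 0.1493 for ORF1p against series bl, −2.8452 for ORF2p against series b (exact permutation p = 0.133, with too few libraries for less than 0.05) and −0.6200 for mock against series b. Outside L1 and ERV1 reads, the share differed by 0.2892 between the RIPs and by −2.6488 between ORF1p and total RNA (exact permutation p = 0.00952).

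With a minimum count of 100 the L2 loci called were 1588 (ORF1p against mock), 850 (ORF2p against mock), 1653 (between the RIPs), and 1665, 920 and 371 (ORF1p, ORF2p and mock against total RNA). With a minimum of 10 the first 5 became 18223, 6251, 21396, 21170 and 9729, as more loci were tested.

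Replicate numbers carry no stated pairing. Same-numbered libraries of different groups correlated between −0.469 and 0.448 in their deviations from the group means. Libraries of different numbers were not correlated for comparison, so this range cannot decide whether the numbers pair the libraries. With the replicate number as a block the L2 subfamilies called against total RNA were 3, 3 and 0 (ORF1p, ORF2p and mock), 12 L2 loci were called in mock against total RNA, and L2-1_AMi turned to −0.0004 with ORF2p against total RNA.

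Leaving out 1 library at a time gave 1 to 3 subfamilies called for ORF1p against mock, 5 for ORF2p against mock, 6 between the RIPs, and 3 to 9, 2 to 5 and 1 to 4 against total RNA. The loci called were 6888 to 7215, 2552 to 3352, 6617 to 8234, 6591 to 8155, 3535 to 4452 and 77 to 2159 in the same order. The difference in L2 share was −0.3235 to 0.0385, −2.3012 to −2.1423, −2.2638 to −1.9017, −0.3031 to 0.0793, −2.3066 to −2.0523 and −0.0814 to 0.173. Of the subfamilies, the sign turned for L2-1_Crp with ORF1p against mock (−0.0998 to 0.2396), L2a with ORF1p (−0.0016 to 0.0589) and ORF2p (−0.0155 to 0.0141) against mock and between the RIPs (−0.0586 to 0.0019), and UCON86 with ORF2p against mock (−0.2548 to 0.0147) and in mock against total RNA (−0.1645 to 0.1051). None of those 6 had passed the test. Without 1 library, an exact test of 3 against 4 or of 4 against 2 cannot fall below 0.05. Of the changes of named loci under settings other than leaving out 1 library, 296 kept their direction and side of the threshold, 13 lost their call, 1 gained one and 1 reversed. The reversed one was the MIR616 locus with ORF2p against mock, which had not passed (0.1241 with the replicate block, and −0.4964 to 0.4454 with 1 library left out). Depth limits the loci: 3.33% of L2 loci had enough reads to be tested.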
